A study of Xenopus laevis with 20 samples.

Results

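Occupancy of the coactivator p300 was compared between gut explants and whole embryos of the frog Xenopus laevis, both at Nieuwkoop-Faber stage 20. The members were the peaks of a pair of deposited lists from chromatin immunoprecipitation and sequencing (ChIP-seq), 15146 in the explant list and 4555 in the whole-embryo list, so 19701 of the 43980 peaks in the 4 lists of the series. The explant list was called on 4 p300 ChIP libraries together, which were foregut explants with DMSO, foregut explants with BIO, hindgut explants with DMSO and hindgut explants with BIO. BIO, an inhibitor of the kinase GSK3 that turns on Wnt signalling, was given at 60 μM from stage 12 to stage 20, and DMSO was its vehicle. The whole-embryo list came from 1 p300 ChIP library of embryos for which the labels give no treatment. All embryos were wild type, the same p300 antibody (sc-585 X) was used throughout, and each of the 5 ChIP libraries had its own input library. The number of embryos or explants behind each library is not stated in the labels. Peak lists of β-catenin and Smad1 were set beside the p300 lists. The β-catenin list was from stage 20 explants of the same 4 groups, with BIO at 60 μM from stage 12. The Smad1 list was from stage 20 whole embryos, for which the labels give no treatment.

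p300 is a histone acetyltransferase that is brought to DNA by transcription factors, and its binding is widely used to find active enhancers. At this stage the foregut and hindgut are still progenitor cells inside the embryo, which also holds neural tissue, somites, epidermis and other tissues. A whole-embryo sample takes in all of them. A whole embryo thus includes gut cells among many others. A site used strongly in a few cells and a site used weakly in many cells cannot be told apart in either sample. The labelled tissues could not be checked against marker genes, because the build of the lists is not given and no gene is assigned to a peak here. No DNA sequence is shown for the same reason.

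The lists were made differently, and each comparison below carries that difference. Explant peaks were a median of 411 bp wide (quartiles 328 and 522) and whole-embryo peaks 118 bp (quartiles 88 and 166), and together they covered 6753 kb in explants and 637 kb in whole embryos. The explant list ended at a −log10 p-value of 23.1 and kept 15.7% of the 96602 peaks that its numbering reaches, whereas the whole-embryo list ran down to a −log10 p-value of 4.63 and kept each of its numbered peaks. Weaker explant peaks that were left out of the deposited list could not be counted as partners. Peaks were ranked within their own list by the deposited score, and folds are the authors' enrichment of ChIP over local background. The median fold was 8.04 in the explant list and 5.41 in the whole-embryo list, values that are not on a common scale. With 1 list per tissue there is no replicate list, so no test between tissues could be made, and the exact (Clopper-Pearson) 95% intervals, given below as intervals, cover counting error only.

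With the lists as deposited, most whole-embryo p300 peaks overlapped an explant peak, and most explant p300 peaks overlapped no whole-embryo peak. In the explant list 2692 peaks (17.8%) overlapped a whole-embryo peak by at least 1 bp, and in the whole-embryo list 2794 peaks (61.3%) overlapped an explant peak. No whole-embryo peak touched more than 1 explant peak, while 96 explant peaks held 2 whole-embryo peaks and 3 held 3. At most 4555 of the 15146 explant peaks could thus be shared, so list length alone left most of them without a partner. At equal length and width, described below, the shares were 30.4% of explant and 30.5% of whole-embryo peaks. The explant peaks with 2 or 3 whole-embryo peaks were wider, with a median of 688 bp, than those with 1, at 492 bp. The narrow embryo peaks sat inside the broad explant ones: 2682 of the 2794 (96.0%) lay entirely within the explant peak. Summits of a pair were a median of 49 bp apart (quartiles 22 and 95 bp), and 94.4% were within 200 bp. Few peaks lay near the edge of the overlap rule. Only 3 pairs overlapped by 10 bp or less, and 3 explant and 5 whole-embryo peaks without a partner came within 100 bp of one.

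Strong explant sites were found in the whole embryo far more often than weak ones. In the highest decile of the explant list by score, 828 of 1514 peaks (54.7%, interval 52.1 to 57.2) had a whole-embryo peak. The share was 29.4% in the second decile, 13.2% in the fifth and 6.14% in the lowest (interval 4.98 to 7.47), and it declined at each step between. A shared explant peak ranked above an unshared one with a probability of 0.742. Shared explant peaks stood at a median of 22.0% from the top of the list and unshared ones at 55.4%. Their folds differed less, with a median of 9.33 (quartiles 7.56 and 11.8) for shared and 7.87 (quartiles 6.86 and 9.25) for unshared peaks. By fold alone the share fell from the highest decile (45.8%) to 10.6% in the seventh and eighth deciles and was 13.5% in the lowest.

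The whole-embryo list had another shape. In its highest decile by score only 220 of 455 peaks (48.4%, interval 43.7 to 53.1) had an explant peak. This was below the 69.1% of the second decile (interval 64.6 to 73.3) and the 69.9% of the third. The later deciles lay between 68.4% and the 51.3% of the lowest (interval 46.6 to 56.0). By score, a shared whole-embryo peak ranked above an unshared one with a probability of 0.522, close to the 0.5 of no difference. This value turned to 0.487 when peaks were compared within quintiles of width and to 0.477 in the higher-ranked 50% of both lists, and it was 0.564 without the highest decile, a setting chosen after seeing the data. The median folds were 5.44 (quartiles 4.74 and 6.44) for shared and 5.03 (quartiles 4.31 and 6.12) for unshared peaks. By fold alone the share was 57.6% in the highest decile, below the 73.0% of the second, and it was lowest in the last, at 39.9%. A shared whole-embryo peak had a higher fold than an unshared one with a probability of 0.573. The highest folds of the list belonged to unshared peaks, which reached 41.5, while shared peaks reached 20.9. The score of this list takes 194 distinct values over its 4555 peaks, so that many ranks within it were settled by the fold. This held for the explant list too, with 782 distinct values over 15146 peaks.

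**Figure D1:**
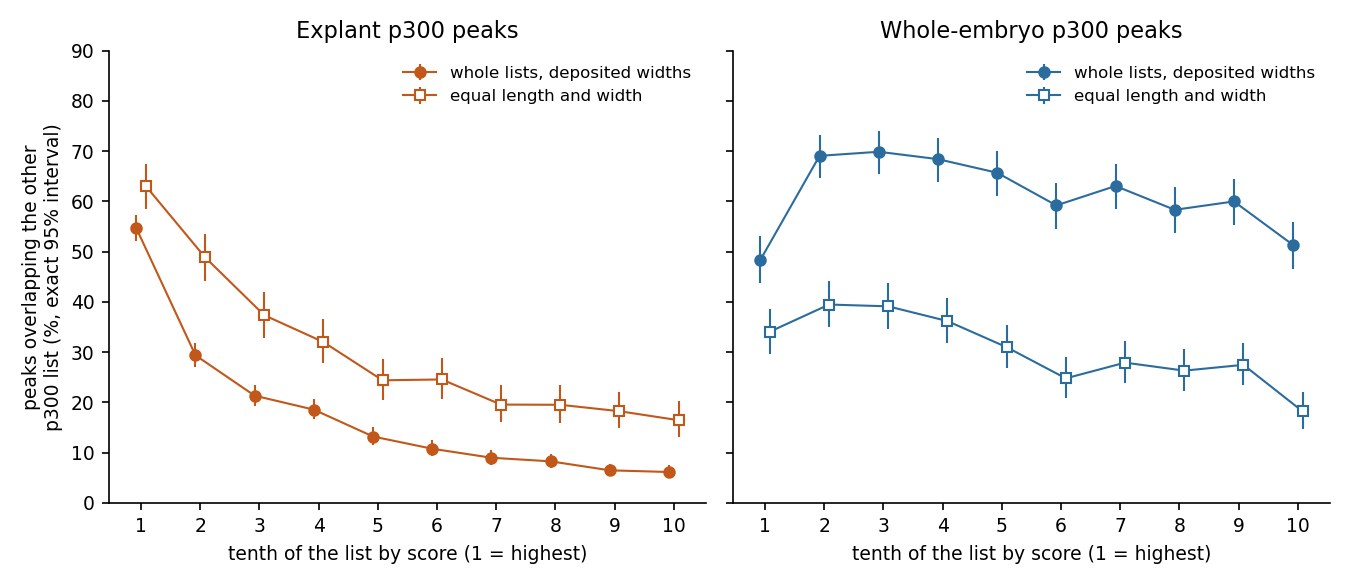
Percentage of p300 peaks that overlap the p300 list of the other tissue, by decile of the peaks' own list (1 is the highest score), for explants on the left and whole embryos on the right; bars are exact 95% intervals. Filled circles are whole lists with deposited widths and open squares are 4555 peaks a list set to 118 bp. Explant shares decline from the first decile to the last. In whole embryos the first decile (48.4%) lies below the second (69.1%) with whole lists, and their intervals overlap at equal length and width (34.1% and 39.5%).

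Making the lists equal in length and width removed the gap between the tissues' shares by construction. It kept the decline over the explant list but not the place of the first whole-embryo decile. The explant list was shortened to its 4555 highest-ranked peaks, which moved its last −log10 p-value to 40.5. All peaks of both lists were set to 118 bp around the summit, the median width of whole-embryo peaks. Wider peaks were thus cut and narrower ones widened. After this, 1385 explant peaks (30.4%, interval 29.1 to 31.8) and 1387 whole-embryo peaks (30.5%, interval 29.1 to 31.8) were shared. Shortening alone gave 35.1% of explant and 36.6% of whole-embryo peaks. Setting the widths alone gave 15.2% and 50.5%. With both matched, the explant share went down from the first decile (63.1%) to the last (16.4%), and shared explant peaks still ranked higher with a probability of 0.683. The whole-embryo share was 34.1% in the first decile (interval 29.7 to 38.6) and 39.5% in the second (interval 35.0 to 44.1), which overlap, and 18.2% in the last, and the probability was 0.576. The first decile was thus no longer the lowest of the list. The fold ratio of shared over unshared peaks was 1.09 for explants, from medians of 11.3 and 10.4, and 1.10 for whole embryos, from medians of 5.72 and 5.21. Setting all peaks to 411 bp instead, the median width of the whole explant list, gave 35.1% for the shortened explant list and 36.3% for the whole-embryo list. Peaks of the shortened explant list had a median width of 479 bp before this.

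The tops of the lists hardly coincided. Of the 50 strongest explant peaks, 44 had a whole-embryo peak of any rank, and of the 50 strongest whole-embryo peaks, 11 had an explant peak of any rank. Only 2 of the 50 strongest explant peaks met a peak among the 50 strongest of the whole embryo. Among the top 100 of each list 3 coincided, among the top 500 there were 68 explant peaks (13.6%), and among the top 1000 there were 244 (24.4%). Most of the 50 highest-scoring gut peaks were thus in the whole-embryo list but below its top. Most of the 50 highest-scoring whole-embryo peaks were missing from the explant list. Of these 50 whole-embryo peaks, 20 were on unplaced scaffolds, against 5 of the 50 explant peaks. They were not all separate sites: runs of 6 peaks on Scaffold20 and 4 on 8L, described below, lay within ranks 1 to 16. Their folds went down to 3.75, below the list median of 5.41.

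**Figure D2:**
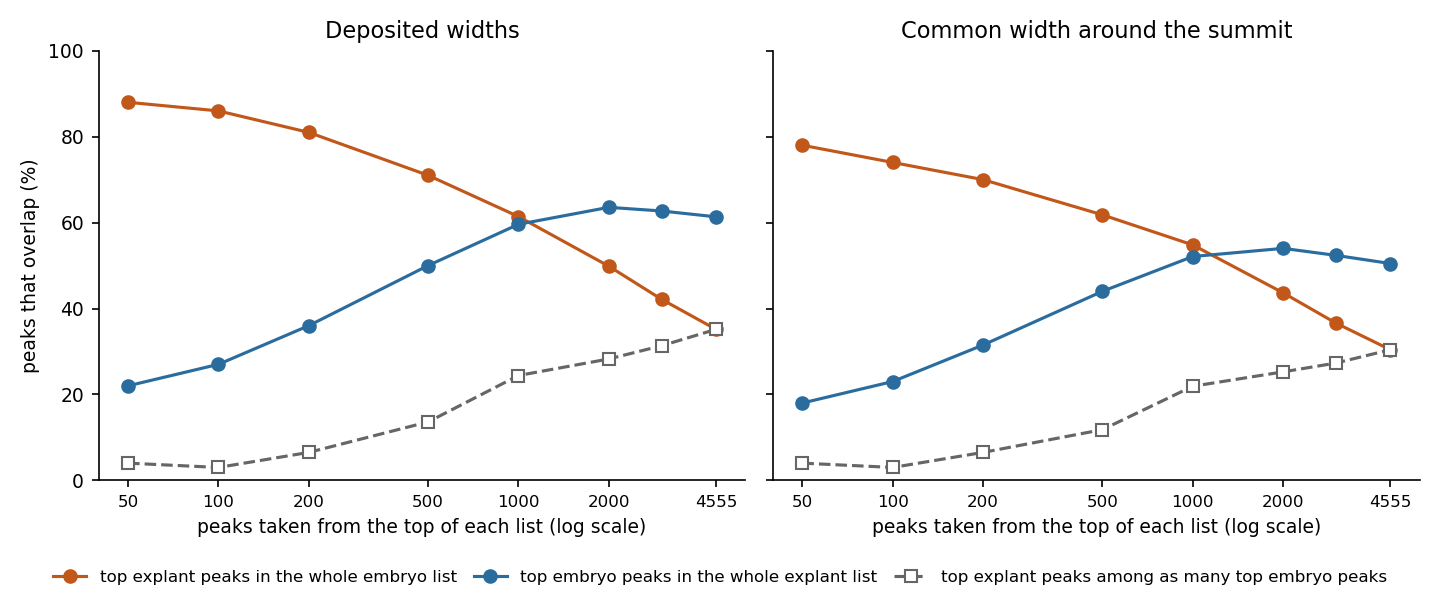
Percentage of the highest-ranked peaks that overlap the other p300 list, against the number taken from the top of each list (log scale), with deposited widths on the left and with 118 bp peaks on the right. Explant peaks (orange) start at 88.0% for the top 50 with deposited widths and decline, whole-embryo peaks (blue) start at 22.0% and climb to 63.6% for the top 2000, and the coincidence of equal tops (open squares) starts at 4%.

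Width went with sharing in both tissues. In explants, 32.7% of the widest quintile of peaks (556 to 2346 bp) and 6.24% of the narrowest (149 to 311 bp) had a whole-embryo peak. In whole embryos these shares were 82.5% for the widest quintile (181 to 816 bp) and 45.6% for the narrowest (79 to 84 bp). A wide interval has more room to be overlapped. With all peaks set to 118 bp, the originally widest and narrowest quintiles gave 25.3% and 5.91% in explants. In whole embryos they gave 66.4% and 35.9%. Width also went with score: the highest score quintile held 1100 of the widest explant peaks and 125 of the narrowest. In whole embryos that quintile held 345 and 95. The part of room and of score in the link of width with sharing was not tested. In explants high score and large width went together with sharing: 54.9% of the widest peaks of the highest score quintile were shared and 4.62% of the narrowest peaks of the lowest score quintile. In whole embryos the widest peaks were shared at 79.1% to 85.7% in each score quintile, whereas among the narrowest peaks the highest score quintile had the lowest share, at 27.4% (26 of 95, interval 18.7 to 37.5), against 45.5% to 49.1% in the other quintiles. The 158 whole-embryo intervals with several summits were shared at 79.1% (interval 71.9 to 85.2).

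**Figure D3:**
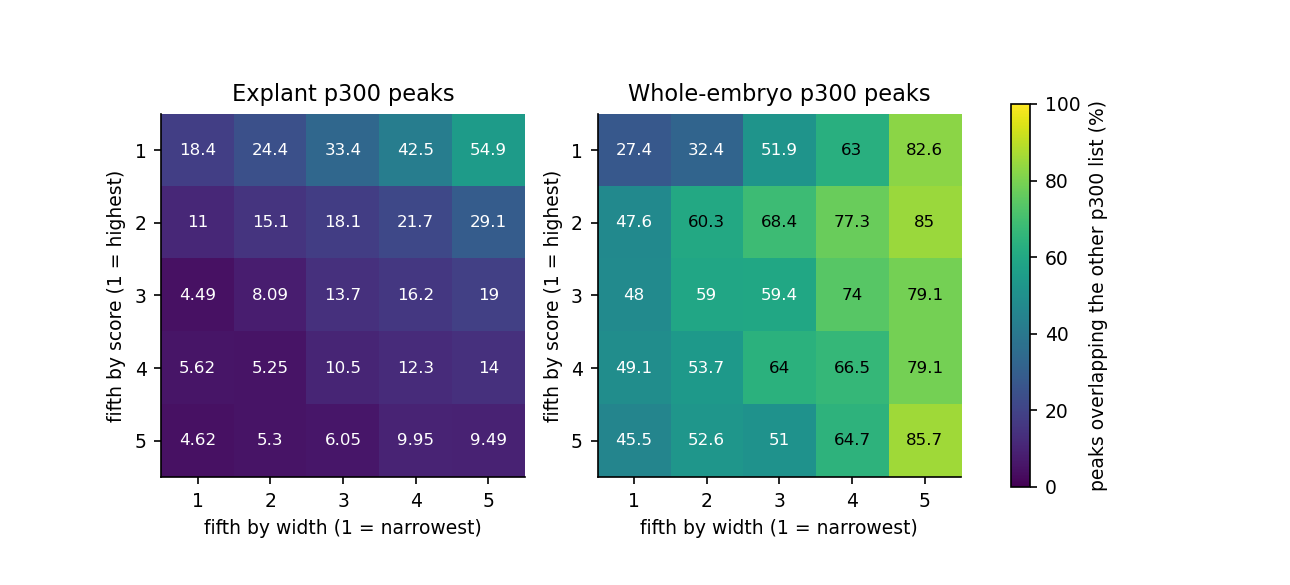
Percentage of p300 peaks that overlap the p300 list of the other tissue, for each quintile of score (rows, 1 is the highest) and of width (columns, 1 is the narrowest), in explants on the left and whole embryos on the right; the printed numbers are the percentages. In explants the share goes from 54.9% at the top right to 4.62% at the bottom left, and in whole embryos the lowest value, 27.4%, is at high score and small width.

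Where both lists had a peak, high-ranking sites went together only loosely. Of the 2794 pairs, 1329 (47.6%) had their explant peak in the highest explant quintile. This share was 64.3% (344 of 535, interval 60.1 to 68.4) for pairs whose embryo peak was in the highest whole-embryo quintile, and 36.5% (185 of 507, interval 32.3 to 40.8) for pairs whose embryo peak was in the lowest. Across the pairs, Spearman's rho of the ranks was 0.21 and of the folds 0.17, given as a description of pairs that share their genomic sites. In 128 pairs both peaks were in the highest decile of their list. In 43 pairs the explant peak was in the highest decile and the embryo peak in the lowest, and in 4 pairs the opposite held. The bases of these counts were unequal. Shared explant peaks numbered 828 in the highest decile and 93 in the lowest, and shared whole-embryo peaks 220 and 234.

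The pairs with the best combined rank, each rank taken as a percentage of its list, were led by the site chr1S:125150208-125150693, the explant peak with the highest score of its list. It had 25.3-fold enrichment in explants and 16.7-fold in whole embryos, with summits 6 bp apart. On chr1L:151458579-151459001 the fold was 24.5 in explants and 14.4 in whole embryos, at ranks 2 and 50. The last of these 10 by the sum of both ranks as percentages of their lists, chr3L:79749242-79750013, had 24.3-fold enrichment in explants, the third rank of that list, and 9.03-fold in whole embryos, rank 177. These 3 sites overlapped neither a β-catenin nor a Smad1 peak. β-catenin, the nuclear effector of canonical Wnt signalling, was profiled in the explants with DMSO or BIO, and Smad1, an effector of BMP signalling, in whole embryos. Of the 10 pairs, 7 overlapped β-catenin, and 6 of these overlapped Smad1 as well. Over all shared explant peaks 66.1% overlapped β-catenin and 65.2% overlapped Smad1. Among shared peaks of the highest explant decile these shares were 79.2% and 80.2%. Of the 7 with β-catenin, the site on chr2S:40714538-40715114 had 19.3-fold enrichment in explants and 13.0-fold in whole embryos. Another, chr2S:55744079-55744543, had 15.9-fold enrichment in explants and 11.3-fold in whole embryos. The sites on chr1L:43756034-43756616 (18.5-fold in explants, 10.7-fold in whole embryos) and on chr1S:43734689-43735265 (19.95-fold and 11.3-fold) were at ranks 110 and 101 of the embryo list. The remaining 3 were on chr6L:20851726-20852408, on chr2L:10071521-10072031, which lacked Smad1, and on Scaffold24:232777-233189.

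At some shared sites the ranks were at opposite ends of the lists. The largest gap in favour of explants was on chr2L:150152974-150153825, with 18.1-fold enrichment at rank 50 in explants and 3.92-fold at rank 4472 in whole embryos. It was followed by chr7L:66181813-66182397 (17.8-fold in explants, 3.41-fold in whole embryos) and chr1L:61995392-61995839 (14.4-fold and 3.96-fold). All 3 overlapped β-catenin and Smad1, beside 55.9% of all shared explant peaks with both. In the highest explant decile, where these 3 lay, 79.2% of shared peaks overlapped β-catenin and 80.2% overlapped Smad1. In the opposite direction stood Scaffold20961:51-384, with 3.79-fold enrichment at rank 14344 in explants and 6.63-fold at rank 20 in whole embryos. On chr6L:130409231-130409411 the folds were 4.78 in explants and 11.96 in whole embryos, and on chr7L:35244523-35245233 they were 6.38 and 7.95. Of these last 3 sites, the first overlapped both effectors, the second neither and the third β-catenin alone. In the lowest explant quintile, where their explant peaks lay, 40.8% of shared peaks overlapped β-catenin and 42.4% overlapped Smad1.

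A few of the strongest explant sites had no whole-embryo peak. The highest of them, at rank 4, was on chr5S:17253727-17254394 with 25.1-fold enrichment, 47.5 kb from the nearest whole-embryo summit. The peak with the highest fold of the explant list, 29.5, was also among them, on chr1S:31405542-31406018 at rank 14, with the nearest whole-embryo summit 334 kb away. On Scaffold58:928726-929390 the fold was 24.7 and the distance 677 kb. None of these 3 sites was thus close to a whole-embryo peak. Others were on chr1S:145117938-145118363 (19.96-fold), chr9_10S:30795766-30796185 (19.8-fold), chr3S:46342256-46342789 (16.6-fold), chr6L:71666409-71667054 (14.9-fold) and Scaffold36452:51-537 (22.9-fold), which held no whole-embryo peak at all. The 2 left among these 10 lay close to whole-embryo sites. The peak on chr1S:43738069-43738632 (12.6-fold) was 3.23 kb from one, and is a neighbour of the shared site on 1S named above. The peak on chr1L:170101538-170102016 (17.4-fold) was 9.23 kb from one. Of the 10, 6 overlapped neither β-catenin nor Smad1, beside 61.0% of unshared explant peaks of all ranks. Nearer to these 10 in rank are the unshared explant peaks of the highest decile. Of those, 59.5% overlapped β-catenin and 53.8% overlapped Smad1.

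The strongest whole-embryo sites with no explant peak were gathered in a few places. Of the 10 highest, 5 were on Scaffold20 between 1315746 and 1319019 and 3 on chromosome 8L between 2930164 and 2932883. The others were a peak on Scaffold15940:622-825 (19.9-fold) and a peak on chr5S:81726547-81726688 (23.5-fold). None of the 10 overlapped β-catenin or Smad1, beside 72.6% of all unshared whole-embryo peaks with neither. Of the 10 highest peaks of the whole-embryo list, only the one at rank 8 had an explant peak.

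Those on Scaffold20, 8L and 5S belonged to tight runs of peaks. With peaks joined when at most 10 kb apart, the largest whole-embryo run was on chr5S:81719243-81732583, with 20 peaks in 13.3 kb. Their folds ran from 6.72 to 23.5 with a median of 13.1, all 20 were in the highest decile of the list, and none overlapped explant p300, β-catenin or Smad1. The nearest explant p300 peak was 109 kb from the run. The run on Scaffold20:1315746-1323422 had 6 peaks with folds of 22.3 to 41.5, and the nearest explant peak was 5.22 kb away. The run on chr8L:2930164-2938690 had 4 peaks with folds of 20.2 to 32.2, with the nearest explant peak at 79.7 kb. No peak of these 3 runs overlapped β-catenin or Smad1, and no explant p300 peak lay inside a run. The runs on Scaffold20 and 8L were chosen after their values were seen. Whole-embryo runs of 3 or more peaks with no shared member numbered 6 of 115 in all, and 58 of the 115 had every peak shared.

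**Figure D4:**
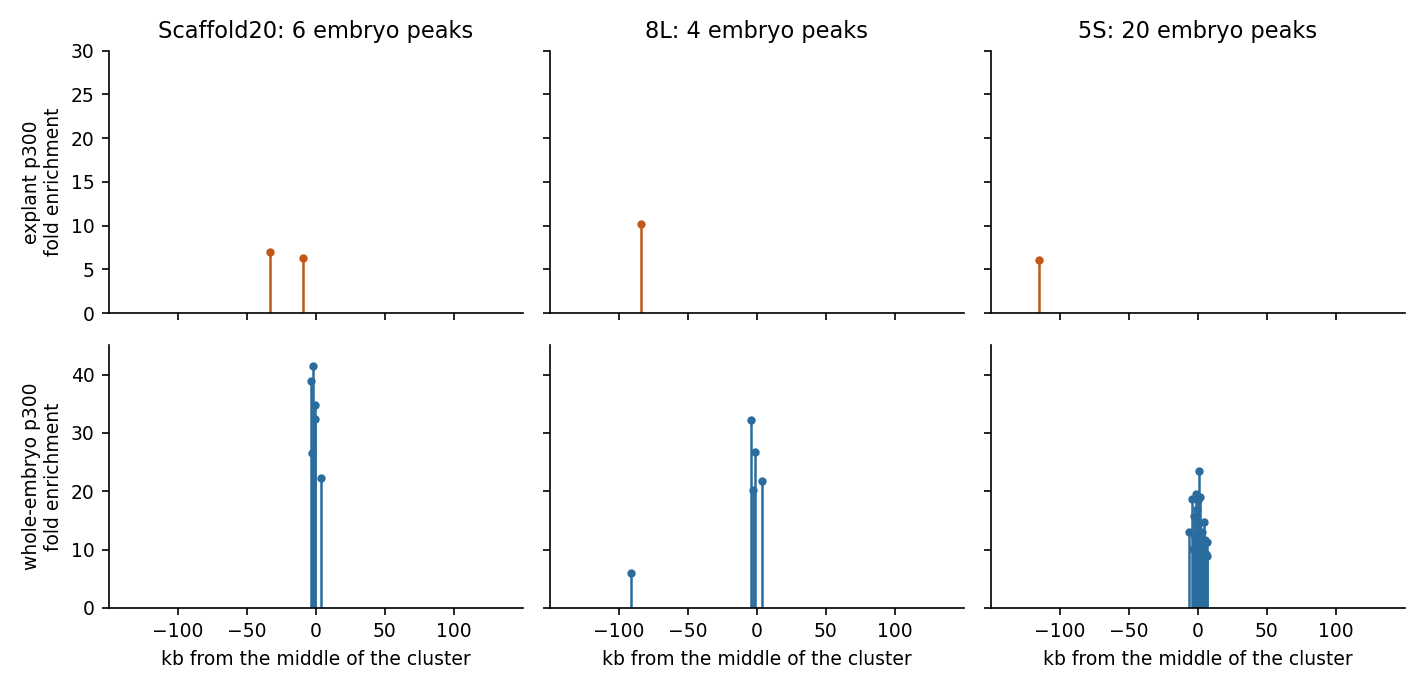
Fold enrichment of p300 peaks in explants (top row) and whole embryos (bottom row) against the distance in kb from the middle of 3 runs of whole-embryo peaks, on Scaffold20, 8L and 5S; each stem is 1 peak at its summit. The whole-embryo runs of 6, 4 and 20 peaks reach folds of 41.5, 32.2 and 23.5, and no explant peak lies within them.

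The highest decile of the whole-embryo list was mixed in other ways too. Its 235 unshared peaks were narrow (median 106 bp) and 28.1% of them were on unplaced scaffolds, whereas its 220 shared peaks had a median width of 206 bp and 14.5% were on scaffolds. The median folds were alike, at 8.50 for shared and 8.63 for unshared peaks. Of the 235, 32 were in runs with no shared peak, 40 were on scaffolds without any explant peak and 163 were elsewhere. Without those runs, 52.0% of the decile was shared (220 of 423, interval 47.1 to 56.9). On named chromosomes and without them it was 56.8% (188 of 331, interval 51.3 to 62.2), still below the second decile. Removing runs with no shared peak takes out unshared peaks only, so it can only raise the share, and these subsets were formed after seeing the data. The part of runs and scaffolds in the low share was not tested further.

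The other large runs were shared in part. The largest explant run was on chr1L:170118453-170180267, with 14 peaks of 6.59-fold to 18.9-fold enrichment. Of these, 4 overlapped a whole-embryo peak, 10 overlapped β-catenin and 8 overlapped Smad1. On the same stretch the whole-embryo list had a run of 8 peaks from 170164957 to 170199204, of which 4 were shared. The next explant runs were on chr2S:130394588-130464761 (13 peaks, 5 shared) and on chr3L:110790824-110833951 (12 peaks, 5 shared). A whole-embryo run of 8 peaks on chr7L:21822468-21865666 had 6 shared. Sharing was more frequent among peaks with neighbours, which also ranked higher, though by less in whole embryos. In explants it was 14.4% for peaks alone within 10 kb (interval 13.7 to 15.2) and 27.7% in runs of 4 or more (interval 25.7 to 29.8). In whole embryos it was 56.4% for peaks alone (interval 54.7 to 58.1) and 68.1% in runs of 4 or more, or 76.2% without the run on 5S (interval 69.0 to 82.4). The median position from the top of the list was 39.9% in runs of 4 or more and 54.3% for lone peaks in explants, and 41.0% and 50.8% in whole embryos. Without the run on 5S, whole-embryo runs of 4 or more stood at 46.6%. Whole-embryo runs of 2 and 3 peaks stood at 48.7% and 49.0%. The part of score in the difference was not tested.

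Shared p300 sites were more often sites of β-catenin and Smad1. Over the whole explant list 38.9% of peaks overlapped β-catenin and 31.0% overlapped Smad1. Among shared explant peaks 66.1% overlapped β-catenin (interval 64.3 to 67.9) and among unshared ones 33.0% (interval 32.2 to 33.9). For Smad1 these shares were 65.2% (interval 63.4 to 67.0) and 23.6% (interval 22.8 to 24.3). Over the whole-embryo list 48.0% of peaks overlapped β-catenin and 47.9% overlapped Smad1. Among shared whole-embryo peaks 66.6% overlapped β-catenin (interval 64.8 to 68.4) and among unshared ones 18.5% (interval 16.7 to 20.3). For Smad1 these were 65.7% (interval 63.9 to 67.5) and 19.5% (interval 17.7 to 21.5). Shared explant and shared whole-embryo peaks are the same pairs, so their partner shares are not separate results. Partner overlap was counted with deposited widths, and shared p300 peaks were wider than unshared ones. Median widths were 498 and 394 bp in explants, and 132.5 and 102 bp in whole embryos. The part of width in these differences was not tested.

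The share was highest among peaks that overlapped both effectors. Of explant peaks with both, 40.7% were shared (1504 of 3697, interval 39.1 to 42.3), against 25.3% with Smad1 alone, 12.5% with β-catenin alone and 8.02% with neither (interval 7.44 to 8.62). Of whole-embryo peaks with both, 89.4% were shared (1582 of 1769, interval 87.9 to 90.8), against 61.8% with Smad1 alone, 66.9% with β-catenin alone and 34.7% with neither (interval 32.6 to 36.8). Even so, 662 shared explant peaks (24.6%) overlapped neither effector, and the 3 highest-ranked peaks of the explant list were among them. Explant peaks with both effectors also ranked higher, at a median of 25.7% from the top of the list, against 60.2% with neither. In whole embryos these medians were 45.9% and 51.1%. The part of score and width in the shares by combination was not tested.

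Explant peaks with a higher score also overlapped the effectors more often, so the shares were set side by side within score quintiles. In the highest explant quintile β-catenin was at 76.8% of shared and 53.0% of unshared peaks, and in the lowest at 40.8% and 23.1%. For Smad1 the values were 76.3% and 45.4% in the highest quintile, and 42.4% and 12.4% in the lowest. Averaged over the quintiles, the difference between shared and unshared explant peaks was 22.6 points for β-catenin and 31.4 points for Smad1, against 33.0 and 41.6 points without regard to score. In whole embryos the split was widest at the top. In the highest quintile β-catenin was at 75.9% of shared and 7.71% of unshared peaks, and Smad1 at 75.0% and 7.71%. In the lowest quintile β-catenin was at 61.3% and 21.8%, and Smad1 at 58.8% and 23.3%. The strongest whole-embryo p300 peaks with no peak in the explant p300 list were thus those that least often overlapped β-catenin or Smad1 peaks. β-catenin was profiled in explants only, so its binding at these sites in whole embryos is not known. Likewise Smad1 was profiled in whole embryos only, so its binding in explants at unshared explant sites is not known. In the highest whole-embryo decile 8 of the 235 unshared peaks overlapped β-catenin (3.40%, interval 1.48 to 6.60) and 11 overlapped Smad1 (4.68%, interval 2.36 to 8.22). Among the 220 shared peaks of that decile these counts were 174 (79.1%) and 163 (74.1%).

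**Figure D5:**
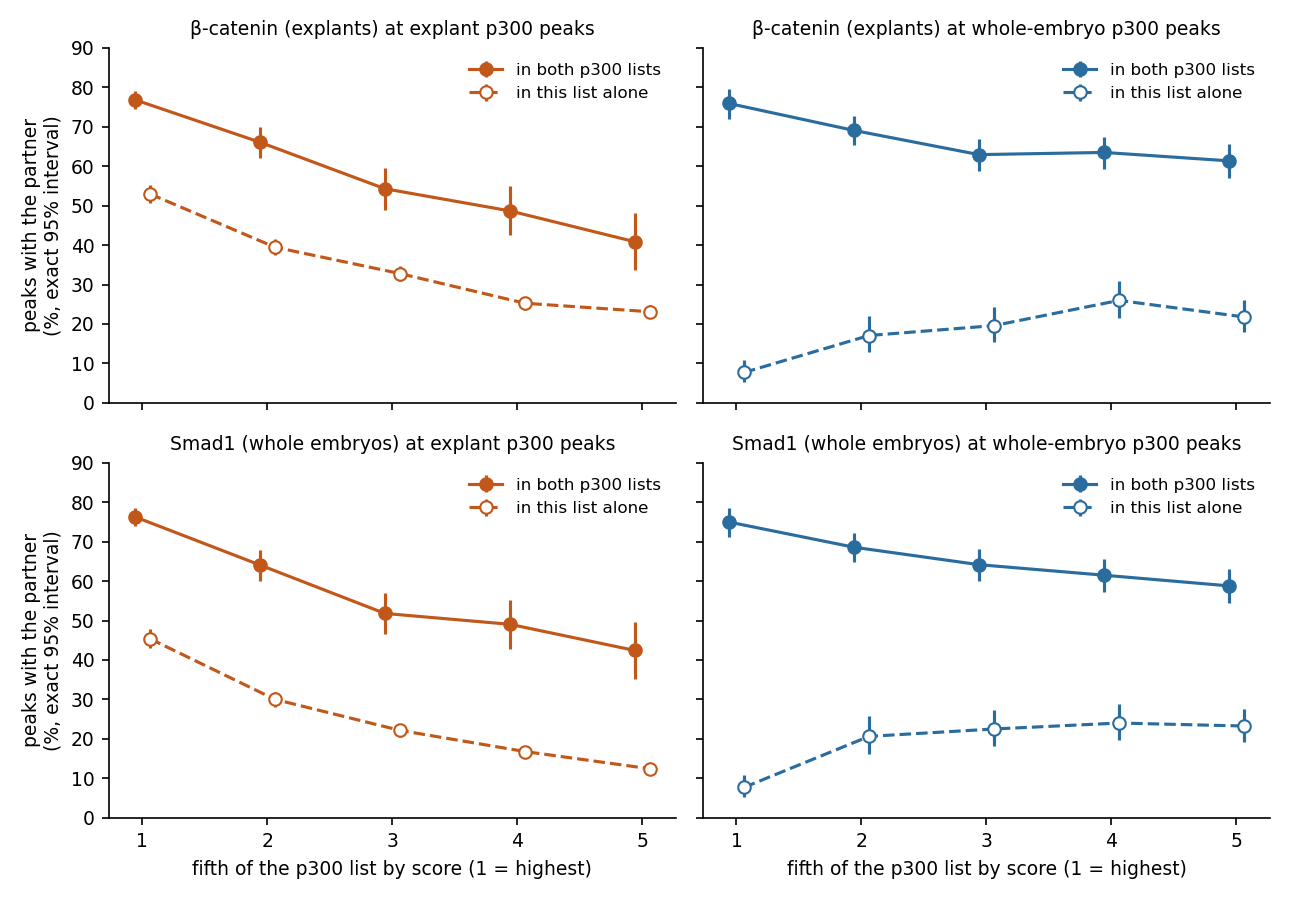
Percentage of p300 peaks that overlap β-catenin (top row) or Smad1 (bottom row), by score quintile of the p300 list (1 is the highest), for explants on the left and whole embryos on the right; filled points are peaks in both p300 lists, open points are peaks in a single p300 list, and bars are exact 95% intervals. Shared peaks lie above unshared ones in each quintile, and in whole embryos the unshared points are lowest in the first quintile, at 7.71% for each protein.

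The effectors were also stronger at shared sites, by their own values in their own lists. β-catenin peaks at shared explant p300 sites had a median fold of 13.1 (quartiles 10.2 and 17.7). Those at unshared explant sites had 11.6 (quartiles 9.40 and 15.3), against 12.1 over all β-catenin peaks. Smad1 peaks had a median fold of 10.5 (quartiles 7.95 and 14.6) at shared explant sites and 8.41 (quartiles 7.12 and 10.6) at unshared ones, against 8.31 over all Smad1 peaks. In rank they stood at a median of 26.8% (β-catenin) and 22.9% (Smad1) from the top of their lists at shared explant sites, and at 44.0% and 47.8% at unshared ones. At whole-embryo p300 sites the medians were 13.1 for shared and 11.4 for unshared peaks with β-catenin, and 10.5 and 8.58 with Smad1. The shared sites are those of the same pairs, so their medians repeat the ones above. Shared explant p300 peaks were also higher in score and wider than unshared ones, and the part of either here was not tested.

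Few sites without a partner had one within 1 kb, and more had one within 50 kb. Of the 12454 unshared explant peaks, 133 (1.07%) had a whole-embryo summit within 1 kb, 1899 (15.2%) within 10 kb and 4452 (35.7%) within 50 kb. Of the 1761 unshared whole-embryo peaks, 47 (2.67%) had an explant summit within 1 kb, 475 (27.0%) within 10 kb and 910 (51.7%) within 50 kb. With whole lists the median distances were 108 kb for explant and 36.3 kb for whole-embryo peaks, and the lists differ in density. With the explant list shortened to 4555 peaks, 2954 explant and 2888 whole-embryo peaks were unshared. Their medians were 82.0 and 107 kb. Shortening also changed which peaks were unshared, so these medians are over other peaks than those of the whole lists. With whole lists, 274 unshared explant and 140 unshared whole-embryo peaks were on a scaffold with no peak of the other list.

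Sharing was spread over the genome. Across the 18 named chromosomes it ran from 15.2% (5S) to 21.2% (7S) of explant peaks and from 51.3% (5S) to 69.3% (2L) of whole-embryo peaks. The value for whole embryos on 5S was 57.4% without the run of 20 peaks, and 9_10S was then the lowest at 53.4%. Xenopus laevis carries a long (L) and a short (S) subgenome. Explant peaks were shared at 17.4% on L chromosomes (interval 16.6 to 18.2) and 18.1% on S chromosomes (interval 17.1 to 19.1), with overlapping intervals. Whole-embryo peaks were shared at 65.2% on L (interval 63.3 to 67.1) and 60.6% on S (interval 58.3 to 62.9). The S value includes the run of 20 unshared peaks on 5S, and a difference between L and S was not tested. On unplaced scaffolds 18.9% of 925 explant peaks and 42.4% of 420 whole-embryo peaks were shared. On named chromosomes these shares were 17.7% and 63.3%.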

How the data were processed

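The series has 20 samples, 10 of them p300 ChIP or input libraries, in groups of 1. Per the submitters' processing notes the tools were MACS2, Bowtie2, SAMtools, Picard, Trimmomatic and FastQC, with no version stated. Settings and genome build are not stated in the labels. Headers are absent from the peak lists. From their values, the authors' deposited columns hold a score, the fold (a ratio of ChIP over local background), the −log10 p-value and the −log10 q-value of each peak. The deposited score is 10 times the −log10 p-value in explants and 10 times the −log10 q-value in whole embryos. By its peak names the explant list was called on pooled libraries, and its title names IDR (irreproducible discovery rate).

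Whole-embryo intervals repeated for several summits (172 further lines) were counted as 1 peak, by the line with the highest score, and 14 lines without a summit were given the midpoint. Ranks follow the score, then the fold. Overlap means at least 1 bp. Shares have exact (Clopper-Pearson) 95% intervals. The rank comparison is the probability that a shared peak outranks an unshared one, with no test, since peaks of 1 list are not replicates. Read depth is unknown. The counting code was run on simulated lists with planted overlaps, of which 100% were found. Planted summits lay close together and other sites far apart, so this checks the code and not the counting at crowded sites. Python 3.11.15, pandas 2.3.3 and SciPy 1.17.1 were used.

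Named peaks are the 10 pairs with the lowest sum of rank percentages, the 10 highest unshared peaks of each list, the 3 pairs with the largest gap in rank percentage in each direction and the 3 runs with most peaks of each list. The members and lists were chosen with earlier results of these data known. On all 18 chromosomes the gene table extended past the last peak, by 5.01 Mb or more, so it was treated as a different build and left aside, and the planned gene lists were not counted.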

Additional observations from a re-analysis of the deposited data

How the results depend on the processing

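Of 74 alternatives to 10 results, 41 stayed within the 95% interval (for fold ratios, within 0.05), 31 moved outside it and 2 reversed. The intervals were exact for shares, Newcombe intervals for differences in partner share and Hanley intervals for rank probabilities. They take peaks as independent, so they serve only to sort the alternatives and are no test. Of the 41, 4 could not change by construction (explant values with each deposited line counted, or without whole-embryo runs that hold no shared peak). The reversed value was the whole-embryo rank probability of 0.522, which became 0.477 in the higher-ranked 50% of each list and 0.487 within width quintiles. The cause was not tested. It was 0.570 with the explant list shortened, 0.576 with length and width matched and 0.564 without the highest decile. The explant share of 17.8% was 35.1% with that list shortened, 15.2% with widths made equal, 30.4% with both, 15.3% in the higher 50% and 17.1% with summits within 200 bp. The whole-embryo share of 61.3% was 36.6%, 50.5%, 30.5%, 52.1% and 57.9% in the same order, and 63.3% on named chromosomes. The explant rank probability of 0.742 was 0.690 shortened, 0.683 with both matched, 0.718 in the higher 50%, 0.705 within width quintiles and 0.673 without the highest decile, and the fold ratio of 1.19 was 1.08, 1.09, 1.13 and 1.13 in the first 4 of these. With the explant list shortened, the explant and whole-embryo shares are close to each other by construction. Their level, the rank probability and the fold ratio are not fixed by it. With both matched, the differences in partner share were 24.2 points (β-catenin) and 30.7 points (Smad1) for explants, and 37.6 and 36.5 points for whole embryos. There the equal widths served only to find shared p300 peaks, and partner overlap kept the deposited widths. Within rank quintiles the explant differences were 22.6 and 31.4 points, and with summits within 200 bp the whole-embryo ones were 43.1 and 42.0 points. Of the alternatives, 6 were chosen after seeing the data. No paired analysis was possible because each group has 1 library and no result comes from a test. Unknown read depth limits what a missing peak can show.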
